A study of Homo sapiens with 4 samples.

Results

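Notch signalling passes a message between touching cells. Ligands of the Jagged and Delta families on one cell bind Notch receptors on its neighbour, which are then cut, and the released intracellular domain enters the nucleus. There it joins the DNA-binding protein RBPJ and a coactivator of the Mastermind-like (MAML) family and switches on targets such as HES1, HEY1 and NRARP. HES1 and HEY1 encode transcriptional repressors, and NRARP encodes an ankyrin-repeat protein that limits Notch output. In the lung the pathway takes part in airway cell fate choices.

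The genes described are JAG1, JAG2, NOTCH1, NOTCH2, NOTCH3, RBPJ, MAML2, HES1, HEY1 and NRARP. The rule took all probe sets annotated to 1 of these 10 genes and to no other gene, and used no measured value. The 10 genes themselves were chosen with earlier results of these data known. Their shares set beside those of all genes below are therefore descriptions and not tests. This gave 27 of the 54675 probe sets on the array, for 10 of 19740 genes. JAG1 had 6 probe sets, NOTCH2 had 4, RBPJ and HES1 had 3, NRARP had 1 and the others had 2.

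RNA came from 4 populations of human lung adenocarcinoma cells, each on 1 Affymetrix array: CL1-5 cells with an shRNA against G9a, CL1-5 cells with a control shRNA, CL1-0 cells expressing HA-tagged G9a and CL1-0 cells with a control vector. CL1-5 is a more invasive subline of CL1-0. All were stable transductants selected with puromycin, so the knockdown rests on 1 hairpin and each group on 1 selected population. G9a, encoded by EHMT2, is a histone H3 lysine 9 methyltransferase. The study asked what follows in gene expression when its level is lowered in one line and raised in the other. With 1 array a group, no difference within a line has a replicate check and none has a p-value.

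The values are MAS5 signals on a linear scale. Signals below 3.35, the 25th percentile of all values, were set to that floor. Probe sets were counted where at least 1 of the compared arrays reached 12.5, the median of all values. The knockdown array was brighter in general: over its control the log2 ratio of the median gene was 0.42, and for HA-G9a over vector it was -0.08. Ratios called relative have that median subtracted. Repeated probe sets of a gene gave a technical yardstick, a pooled SD of the log2 ratio of 0.54 for knockdown over control and 0.51 for HA-G9a over vector. Among bright probe sets, those reaching 84.2, the 75th percentile of all values, it was 0.30 and 0.25. This yardstick holds the spread between probe sets on the same arrays, and no variation between replicate arrays or cultures. The bright EHMT2 probe set read 28.1 with the G9a shRNA and 376 with the control shRNA, and 862 with HA-G9a and 420 with the vector. A dimmer one read 9.98 and 34.2 in CL1-5, and 44.2 with HA-G9a and 38.0 with the vector, a relative log2 ratio of only 0.30 for HA-G9a. The last EHMT2 probe set was below the filter. The labels name the type II alveolar cell as the origin of both lines, yet of 7 type II markers none read above 60.2 on any array. The 8 epithelial markers differed widely. KRT18, a keratin of simple epithelia, read between 545 and 2945, and KRT8 between 67.1 and 757. CDH1 read between 2.36 and 77.6. On their brightest probe sets KRT7, KRT19, EPCAM, CLDN4 and CLDN7 read at most 34.3 on any array.

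The promoters of 2 targets, HES1 and NRARP, and of the ligand gene JAG1 are shown as examples, each gene being past 2-fold in a comparison below. They are the 250 bases before the annotated start, from RefSeq, build GRCh38.p14. HES1 lies at chr3:194135898-194136147 on the plus strand, NRARP at chr9:137302272-137302521 on the minus strand, and JAG1 at chr20:10674000-10674249 on the minus strand. Capitals mark the RBPJ core TGGGAA and the N box CACNAG, a sequence bound by HES repressors, on either strand.
HES1: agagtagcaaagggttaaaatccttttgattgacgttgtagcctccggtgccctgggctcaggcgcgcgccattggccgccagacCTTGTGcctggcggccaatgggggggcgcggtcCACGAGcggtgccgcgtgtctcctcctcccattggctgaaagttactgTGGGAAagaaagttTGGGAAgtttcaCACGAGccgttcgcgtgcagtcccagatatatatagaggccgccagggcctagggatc
NRARP: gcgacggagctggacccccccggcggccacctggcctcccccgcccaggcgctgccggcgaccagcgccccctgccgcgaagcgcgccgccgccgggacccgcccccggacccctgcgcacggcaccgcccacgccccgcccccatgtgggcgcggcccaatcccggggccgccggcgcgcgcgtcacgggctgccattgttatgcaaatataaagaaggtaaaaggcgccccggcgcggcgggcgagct
JAG1: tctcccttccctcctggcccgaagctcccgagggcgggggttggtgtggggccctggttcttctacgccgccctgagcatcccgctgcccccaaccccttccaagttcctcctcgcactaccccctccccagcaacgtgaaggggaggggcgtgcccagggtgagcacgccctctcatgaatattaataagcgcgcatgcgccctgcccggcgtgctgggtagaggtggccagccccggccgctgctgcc
The HES1 promoter held the RBPJ core at 2 places on the plus strand, starting 84 and 70 bases before the start, and the N box at 3 places. The first of these N boxes is on the minus strand and reads CTTGTG in the line above. The NRARP and JAG1 windows held neither motif.

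Across the RefSeq table, 20.8% of 35116 promoter windows of this length held the RBPJ core and 2.90% held it at least 2 times. The N box was in 32.0% of them. The table has promoters for 9 of the 10 genes, all but HEY1, with 13 windows in all, 5 of them for RBPJ. The RBPJ core was found in windows of HES1 and RBPJ only, and the N box in windows of 4 of the 9 genes. The windows were GC-rich for the most part: 11 of 13 lay above 58.0%, the median of all promoters, with 59.2% for HES1, 68.4% for JAG1 and 78.4% for NRARP. A match in the letters is a description and not evidence of binding.

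**Figure D1:**
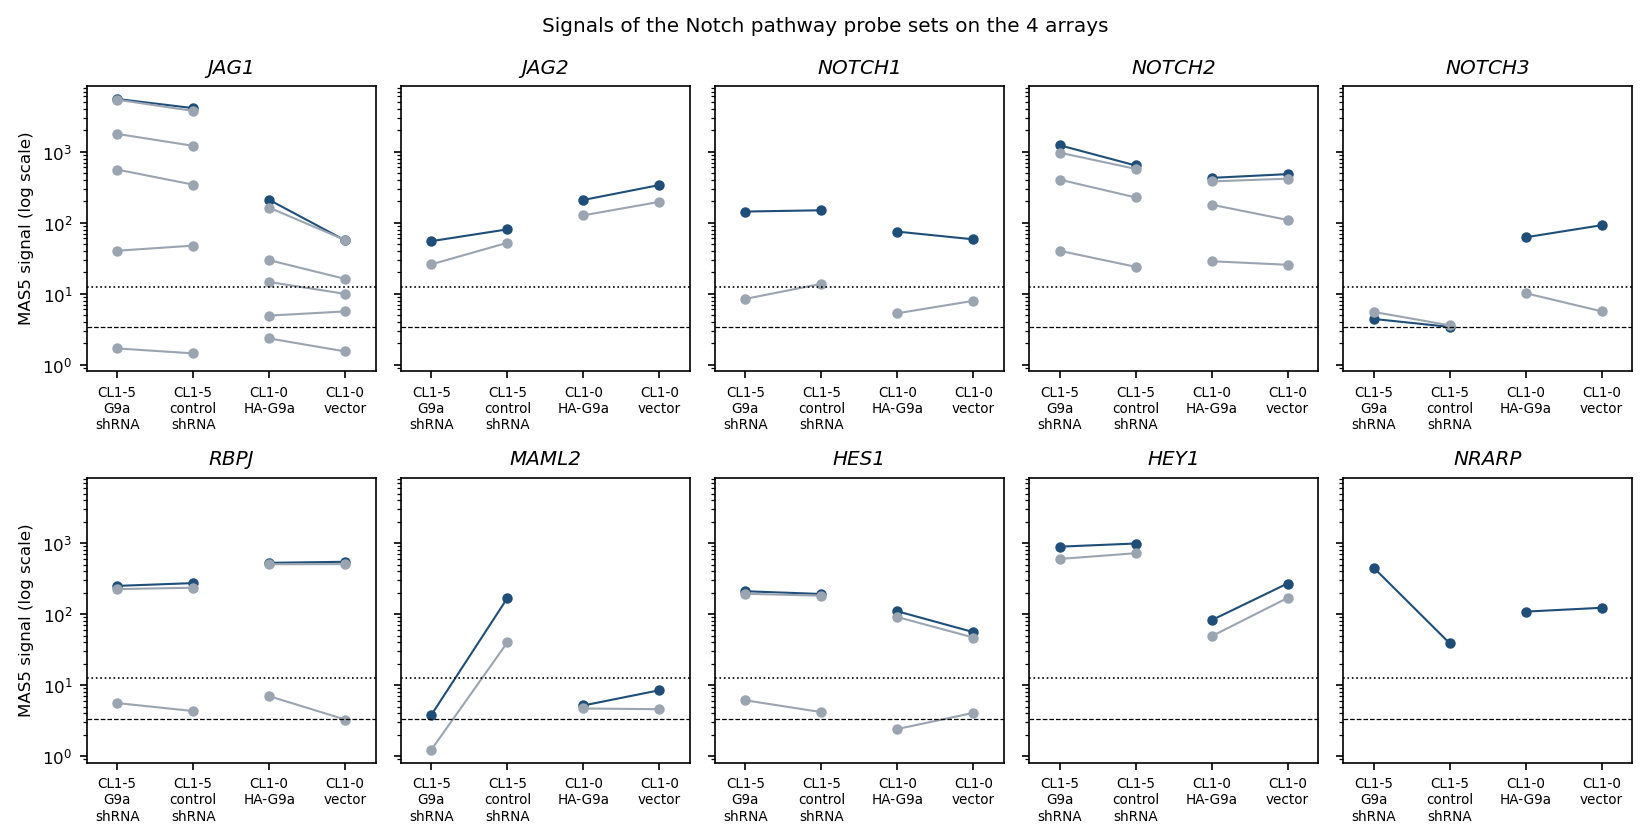
MAS5 signal (log scale) of each of the 27 probe sets on the 4 arrays, 1 panel a gene. Dark blue marks the brightest probe set of the gene, which stands for it, and grey its others; lines join the arrays of a line, the dotted line is the filter at 12.5 and the dashed line the floor at 3.35. JAG1 and HEY1 sit higher on both CL1-5 arrays, JAG2, NOTCH3 and RBPJ on both CL1-0 arrays, MAML2 reads 168 on the CL1-5 control array alone, and NRARP reads 452 on the knockdown array.

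With the G9a shRNA in CL1-5, 2 of the 10 genes stood out in opposite directions: the coactivator gene MAML2 was far dimmer and the target gene NRARP far brighter. The ligand JAG1, the receptors NOTCH1 and NOTCH2, RBPJ and the targets HES1 and HEY1 all lay within 2-fold of the median gene, and JAG2 lay just inside it. NOTCH3 was too dim in CL1-5 to be counted. Of the 9 genes counted, NRARP alone was at least 2-fold higher and MAML2 alone at least 2-fold lower, 2 of 9 or 22.2%. Of all 13045 genes counted, 15.9% passed 2-fold, 8.13% higher and 7.76% lower. The median relative log2 ratio of the 9 genes was -0.48, with 3 above and 6 below the median gene.

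MAML2 belongs to the family that completes the complex of the Notch intracellular domain and RBPJ. Its brighter probe set read 3.81 with the G9a shRNA and 168 with the control shRNA, a relative log2 ratio of -5.88. The second probe set read 1.23 and 40.0 in the same order, and the first value lies under the floor. Both probe sets were thus near background with the G9a shRNA, and the second gives a bound: at least 11.9-fold lower as deposited. MAML2 was counted only through its control array, and a floor at 12.5 in place of 3.35 moved its relative log2 ratio to -4.12. Its family members did not share the pattern in these values. MAML1 read 609 with the G9a shRNA and 364 with the control shRNA, and MAML3 read 638 and 299. Their relative log2 ratios were 0.32 and 0.67.

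NRARP is a direct Notch target whose product acts back on the Notch complex. It has a single probe set here, so no second one bears on its value. It read 452 with the G9a shRNA and 39.0 with the control shRNA, a relative log2 ratio of 3.12 and a fold of 8.66. In CL1-0 it read 109 with HA-G9a and 123 with the vector, a relative log2 ratio of -0.10. The CL1-5 control array was therefore the lowest of the 4 and the knockdown array the highest.

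The other targets did not follow NRARP. HES1 read 210 with the G9a shRNA and 192 with the control shRNA on its brightest probe set, and 194 and 182 on the next, with relative log2 ratios of -0.29 and -0.33. HEY1 read 892 and 989 on one probe set and 599 and 722 on the other, with relative log2 ratios of -0.57 and -0.69. The HES1 ratios lay about 1 yardstick SD of bright probe sets from 0, and the HEY1 ratios about 2. The remaining HES1 probe set read between 2.41 and 6.12 on the 4 arrays.

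The ligands differed from each other. JAG2 read 54.9 with the G9a shRNA and 80.5 with the control shRNA, a relative log2 ratio of -0.97. Its second probe set read 25.9 and 52.0, a ratio of -1.43, so JAG2 falls on either side of 2-fold by probe set. With the mean of all probe sets as the gene's value it joined MAML2 as a second gene past 2-fold lower. JAG1 was very bright on both CL1-5 arrays. Its brightest probe set read 5522 with the G9a shRNA and 4100 with the control shRNA, a relative log2 ratio of 0.01. The 5 JAG1 probe sets that were counted had relative log2 ratios between -0.66 and 0.28, and none passed 2-fold.

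Among the receptors, NOTCH2 was a little brighter with the G9a shRNA on every one of its 4 probe sets. The brightest read 1233 with the G9a shRNA and 639 with the control shRNA, and the 4 relative log2 ratios lay between 0.33 and 0.53, under the yardstick SD of all counted probe sets and above that of bright ones. NOTCH2 has near-identical partial copies in the genome, the NOTCH2NL genes, whose transcripts its probe sets may also read. NOTCH1 read 143 with the G9a shRNA and 149 with the control shRNA. A dim second NOTCH1 probe set read 8.45 and 13.8 and had a relative log2 ratio of -1.12, close to the filter. NOTCH3 read 4.41 and 3.41 on its brighter probe set, near the floor on both arrays.

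RBPJ, the DNA-binding hub, read 250 with the G9a shRNA and 274 with the control shRNA on one probe set, and 225 and 236 on another. The relative log2 ratios were -0.55 and -0.49. RBPJ has processed pseudogenes, which its probe sets may also read. The remaining probe set read between 3.28 and 6.99 on the 4 arrays.

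Markers of other cell types moved in this comparison as well. In RNA from a whole population, fewer cells of a type and less RNA per cell cannot be told apart. All 5 endothelial markers that were counted were at least 2-fold lower. Of all genes counted, 8.13% were at least 2-fold higher and 7.76% lower. CDH5, KDR and CLDN5 were counted only through the control array, where they were high, so their direction is no independent support. The summed signal of the 8 on the endothelial list was 117 with the G9a shRNA and 519 with the control shRNA. VWF, TEK and EMCN were at or below the floor on both CL1-5 arrays. Of the epithelial list 2 of 5 were higher and 1 lower, with sums of 2993 and 3751. Of the type II alveolar list 2 of 6 were higher and 1 lower, with sums of 175 and 155. Of the fibroblast list 1 of 2 was higher, with sums of 76.6 and 33.5. Of the leukocyte list 1 of 3 was lower, with sums of 50.8 and 50.2. Of the markers past 2-fold on these other lists, EPCAM, CDH1, NAPSA and COL1A1 were counted only through the knockdown array. NKX2-1 was counted only through the control array. PTPRC, which marks leukocytes, read 4.03 and 2.59. The part of these markers in the MAML2 and NRARP values was not tested.

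**Figure D2:**
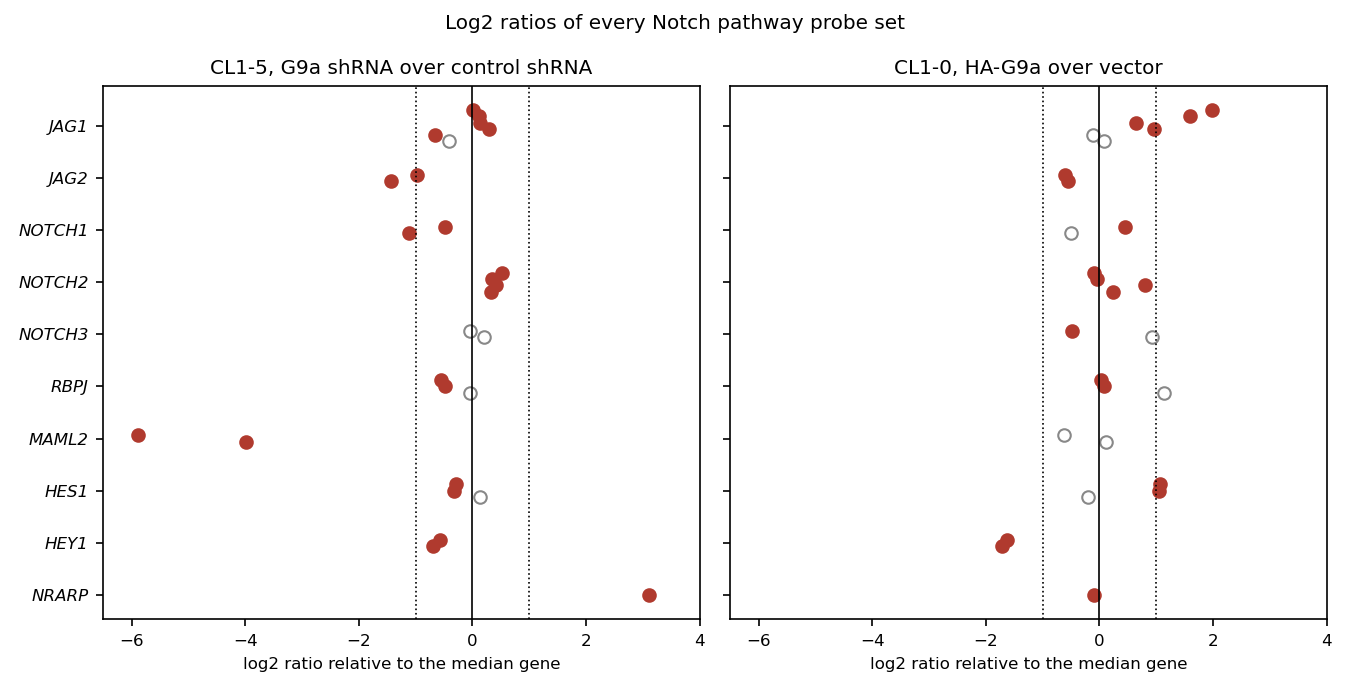
Log2 ratio relative to the median gene for every probe set, with G9a shRNA over control shRNA in CL1-5 on the left and HA-G9a over vector in CL1-0 on the right. Filled points were counted, open points were too dim on both arrays; dotted lines mark 2-fold. MAML2 at -5.88 and NRARP at 3.12 stand apart on the left, and HEY1 at -1.64 and JAG1 at 1.98 on the right.

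With HA-G9a in CL1-0, the ligand gene JAG1 and the target gene HES1 were brighter and the target gene HEY1 was dimmer. The receptors, JAG2, RBPJ and NRARP lay within 2-fold of the median gene, and MAML2 was too dim to be counted. Of 9 genes counted, 2 were at least 2-fold higher and 1 lower, or 33.3%. Of all 12791 genes counted, 9.21% passed 2-fold, 5.46% higher and 3.74% lower. The median relative log2 ratio of the 9 genes was -0.09, with 4 above and 5 below the median gene.

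JAG1 encodes a transmembrane Notch ligand. Its brightest probe set read 209 with HA-G9a and 56.1 with the vector, a relative log2 ratio of 1.98. The next read 163 and 56.8, a ratio of 1.60. Dimmer probe sets read 29.7 and 16.1 with a ratio of 0.96, and 14.6 and 9.94 with a ratio of 0.64. The 4 probe sets that were counted thus had the same sign, and 2 of them passed 2-fold. Averaging all 6 probe sets, 2 of them too dim to be counted, gave 0.83 and ended the call. JAG1 on the HA-G9a array was still far below both CL1-5 arrays on these 4 probe sets.

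The targets HES1 and HEY1 went opposite ways. HES1 read 110 with HA-G9a and 55.8 with the vector, and its second probe set read 91.0 and 46.9. The relative log2 ratios were 1.06 and 1.04, just past 2-fold. As deposited, without subtracting the median, the HES1 log2 ratio was 0.98, just short of it. HEY1 read 82.1 with HA-G9a and 270 with the vector on one probe set, and 48.8 and 169 on the other. Both HEY1 probe sets were more than 3-fold lower, with relative log2 ratios of -1.64 and -1.71.

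The remaining genes moved less. JAG2 read 209 with HA-G9a and 339 with the vector, and 127 and 196 on its second probe set, with relative log2 ratios of -0.61 and -0.55. NOTCH1 read 74.8 with HA-G9a and 58.3 with the vector, a ratio of 0.44. NOTCH3 read 62.2 and 92.1, a ratio of -0.48. Of the NOTCH2 probe sets, 3 had ratios between -0.09 and 0.25, and the other read 179 and 109, a ratio of 0.80, so its probe sets disagreed. RBPJ was level, at 528 and 547 and at 505 and 507. Both MAML2 probe sets read between 4.59 and 8.48 in CL1-0.

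The epithelial markers differed here too. Of the 6 counted, 3 were at least 2-fold higher with HA-G9a and 0 lower, beside 5.46% and 3.74% of all genes. CLDN4, at 31.0 with HA-G9a and 2.41 with the vector, was counted only through the HA-G9a array. EPCAM went the other way, with a relative log2 ratio of -0.88. The 8 on the list summed to 2399 with HA-G9a and 688 with the vector, mostly KRT18 at 2113 and 545. Of 4 fibroblast markers counted, 0 were higher and 1 lower, with list sums of 161 and 449. COL3A1 read 59.7 with HA-G9a and 330 with the vector, and COL1A1 read 55.4 and 84.2. Of 3 endothelial markers counted, 1 was higher and 1 lower, with list sums of 56.3 and 65.6. The higher one, TEK, was counted only through the HA-G9a array and the lower one, PECAM1, only through the vector array. Their directions are therefore no independent support. The part of these markers in the JAG1, HES1 and HEY1 values was not tested.

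None of the 10 genes passed 2-fold in both comparisons. A limma model with line and G9a level as terms used the perturbations as repeats of each other. It compared the CL1-5 control and HA-G9a arrays with the knockdown and vector arrays, with 1 residual degree of freedom. The former read more EHMT2 than the other array of their own line on the bright EHMT2 probe set. Across lines this does not hold, as the vector array read 420 and the CL1-5 control array 376. None of the 10 genes passed an adjusted p of 0.05 and 0 had an unadjusted p under it. Of all 13953 genes tested 0 passed (0%) and 691 (4.95%) had an unadjusted p under 0.05. NRARP had the lowest p of the 10, with a log2 difference of -1.86 ± 0.87 (SE), an unadjusted p of 0.0943 and a limma adjusted p of 0.833.

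Between the lines, JAG1 was far higher and NOTCH3 far lower in CL1-5. On their brightest probe sets NOTCH1, NOTCH2, HES1 and HEY1 read brighter on both CL1-5 arrays, and JAG2 and RBPJ on both CL1-0 arrays. None of these genes passed the test. Both arrays of each line were compared by limma across all genes. The arrays of a line are 1 perturbed and 1 control population, so their spread holds the effect of changing G9a. All 10 genes passed the filter on their brightest array, NOTCH3 only through CL1-0 and MAML2 only through the CL1-5 control. Of the 10, 1 was higher and 1 lower in CL1-5 at an adjusted p of 0.05, and 2.91% of all 13953 genes were called, 1.43% higher and 1.48% lower. At an unadjusted p under 0.05 the share of all genes was 20.5%. On simulated data of this size the test found 1 of 50 genes shifted by a log2 difference of 2 and 36 of 50 shifted by 5. There the spread within lines was shuffled over genes, and 13753 of 13953 genes were left unchanged. Both settings differ from the real data, so these rates need not hold for the 10 genes.

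JAG1 was the gene higher in CL1-5. Its brightest probe set read 5522 and 4100 in CL1-5, against 209 and 56.1 in CL1-0, and the groups did not overlap. The log2 difference was 5.46 ± 0.68 (SE, 2 arrays a line) with a limma adjusted p of 0.0305. Between the control arrays alone, relative log2 ratios of the 5 JAG1 probe sets that were counted ran between 3.09 and 6.94. NOTCH3 was the gene lower in CL1-5. It read 4.41 and 3.41 in CL1-5, against 62.2 and 92.1 in CL1-0, a log2 difference of -4.29 ± 0.37 (SE) with a limma adjusted p of 0.0130. NOTCH3 passed the filter only through CL1-0, where it is high. Its CL1-5 values lie near the floor, so the size of the difference and its SE are set against background and the call is no independent support. Its second probe set was below the filter, at 5.54 and 3.58 in CL1-5 and at 10.2 and 5.64 in CL1-0, and did not show this difference. Leaving out any 1 array ended both calls, with limma adjusted p between 0.110 and 0.315 for NOTCH3 and between 0.130 and 0.315 for JAG1; 0 of all genes were then called. The log2 differences then lay between -4.57 and -4.01 for NOTCH3 and between 4.51 and 6.41 for JAG1. With no filter on dim genes neither passed, and JAG1 also did not after quantile normalization (0.0597) or with no floor (0.0506).

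**Figure D3:**
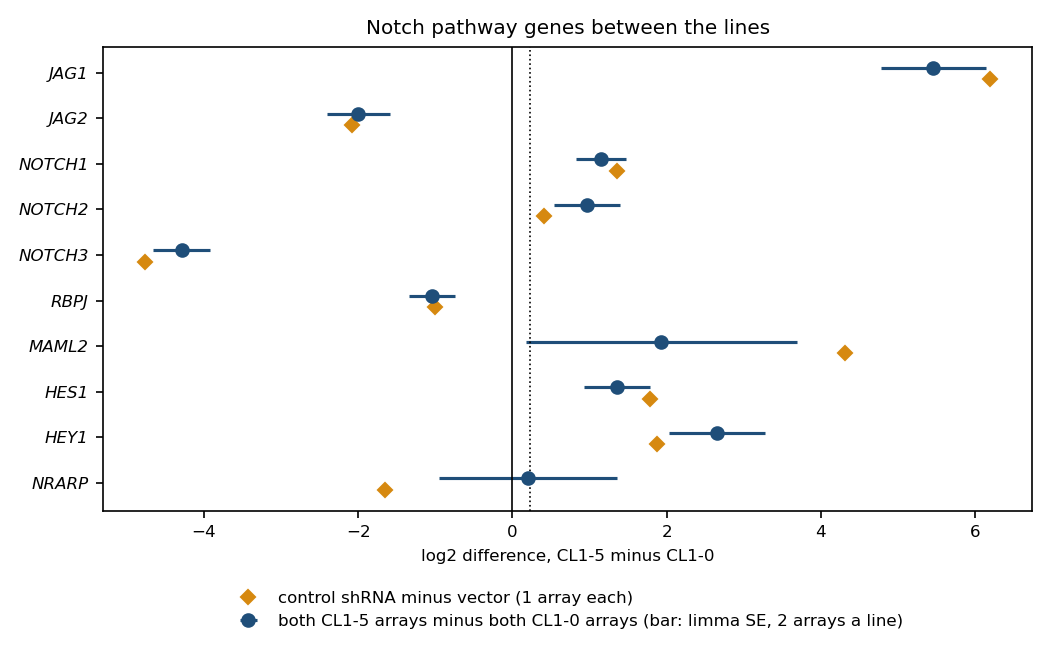
Log2 difference, CL1-5 minus CL1-0, for the 10 genes. Blue circles are the difference of the line means with its limma SE (2 arrays a line), orange diamonds the control arrays alone, and the dotted line the median of all genes at 0.23. JAG1 at 5.46 and NOTCH3 at -4.29 lie farthest from it, and MAML2 and NRARP have the widest bars because their CL1-5 arrays differ.

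The other genes did not pass the adjusted threshold. JAG2 read 54.9 and 80.5 in CL1-5, against 209 and 339 in CL1-0, a log2 difference of -2.0 ± 0.41 (SE) with a limma adjusted p of 0.0794. It passed when only genes reaching 84.2 were tested, at 0.0393. HEY1 read 892 and 989 in CL1-5, against 82.1 and 270 in CL1-0, a difference of 2.66 ± 0.62 (SE) with a limma adjusted p of 0.106. HES1 read 210 and 192 in CL1-5, against 110 and 55.8 in CL1-0, a difference of 1.36 ± 0.43 (SE). In HES1, HEY1 and JAG2 the arrays of the lines did not overlap.

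NOTCH1 read 143 and 149 in CL1-5, against 74.8 and 58.3 in CL1-0, a log2 difference of 1.15 ± 0.32 (SE). NOTCH2 differed by 0.97 ± 0.42 and RBPJ by -1.04 ± 0.30 (SE). The dimmest NOTCH2 probe set overlapped between the lines, at 40.2 and 23.9 in CL1-5 and at 28.6 and 25.5 in CL1-0. Its other probe sets did not overlap as deposited. The limma adjusted p of HES1, NOTCH1, NOTCH2 and RBPJ lay between 0.143 and 0.288. MAML2 and NRARP overlapped between the lines. In all, 8 of the 10 genes had arrays that did not overlap between the lines, 5 higher and 3 lower in CL1-5, against 58.5% of all genes (25.4% higher and 33.1% lower), after each array was set to its own median gene. Relative to the median gene of the line comparison, 4 of the 10 were at least 2-fold higher and 3 lower, against 21.9% of all genes (10.5% higher and 11.4% lower). MAML2 is among the 4 through the CL1-5 control array alone, and leaving out 1 array moved its log2 difference between -0.80 and 4.67, which turns its direction.

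The order of the 4 arrays differed by gene. As deposited, JAG1, NOTCH2, HES1 and NRARP were highest with the G9a shRNA, on the array that was brighter in general. Relative to the median gene HES1 was lower there than with the control shRNA, at -0.29, and JAG1 was level, at 0.01. HEY1 was highest on the CL1-5 control array, next on the knockdown array, then with the vector and lowest with HA-G9a. JAG2, NOTCH3 and RBPJ were highest with the vector, then with HA-G9a. As deposited, the CL1-5 arrays lay within 1 yardstick SD of each other on the log2 scale for NOTCH1, NOTCH3, RBPJ, HES1 and HEY1, and the CL1-0 arrays for NOTCH1, NOTCH2, RBPJ and NRARP. Relative to the median gene the CL1-5 list was JAG1, NOTCH3 and HES1, while the CL1-0 list had the same 4 genes. NOTCH3 was too dim in CL1-5 to be counted, so its place on both CL1-5 lists reflects background. Bright genes were held to the yardstick of bright probe sets.

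Within each line, the share of the wider pathway past 2-fold was close to that of all genes. The wider pathway was described through 46 further genes in 8 groups by role. With the G9a shRNA 40 were counted, of which 1 was at least 2-fold higher and 5 lower, or 15% beside 15.9% of all genes. With HA-G9a 41 were counted, of which 1 was higher and 3 lower, or 9.76% beside 9.21% of all genes. The median relative log2 ratios were -0.03 and -0.06. Between the lines 0 of 41 passed a limma adjusted p of 0.05, beside 2.91% of all genes. Relative to the median gene, 0 of 41 were at least 2-fold higher in CL1-5, beside 10.5% of all genes, and 5 at least 2-fold lower, beside 11.4%.

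**Figure D4:**
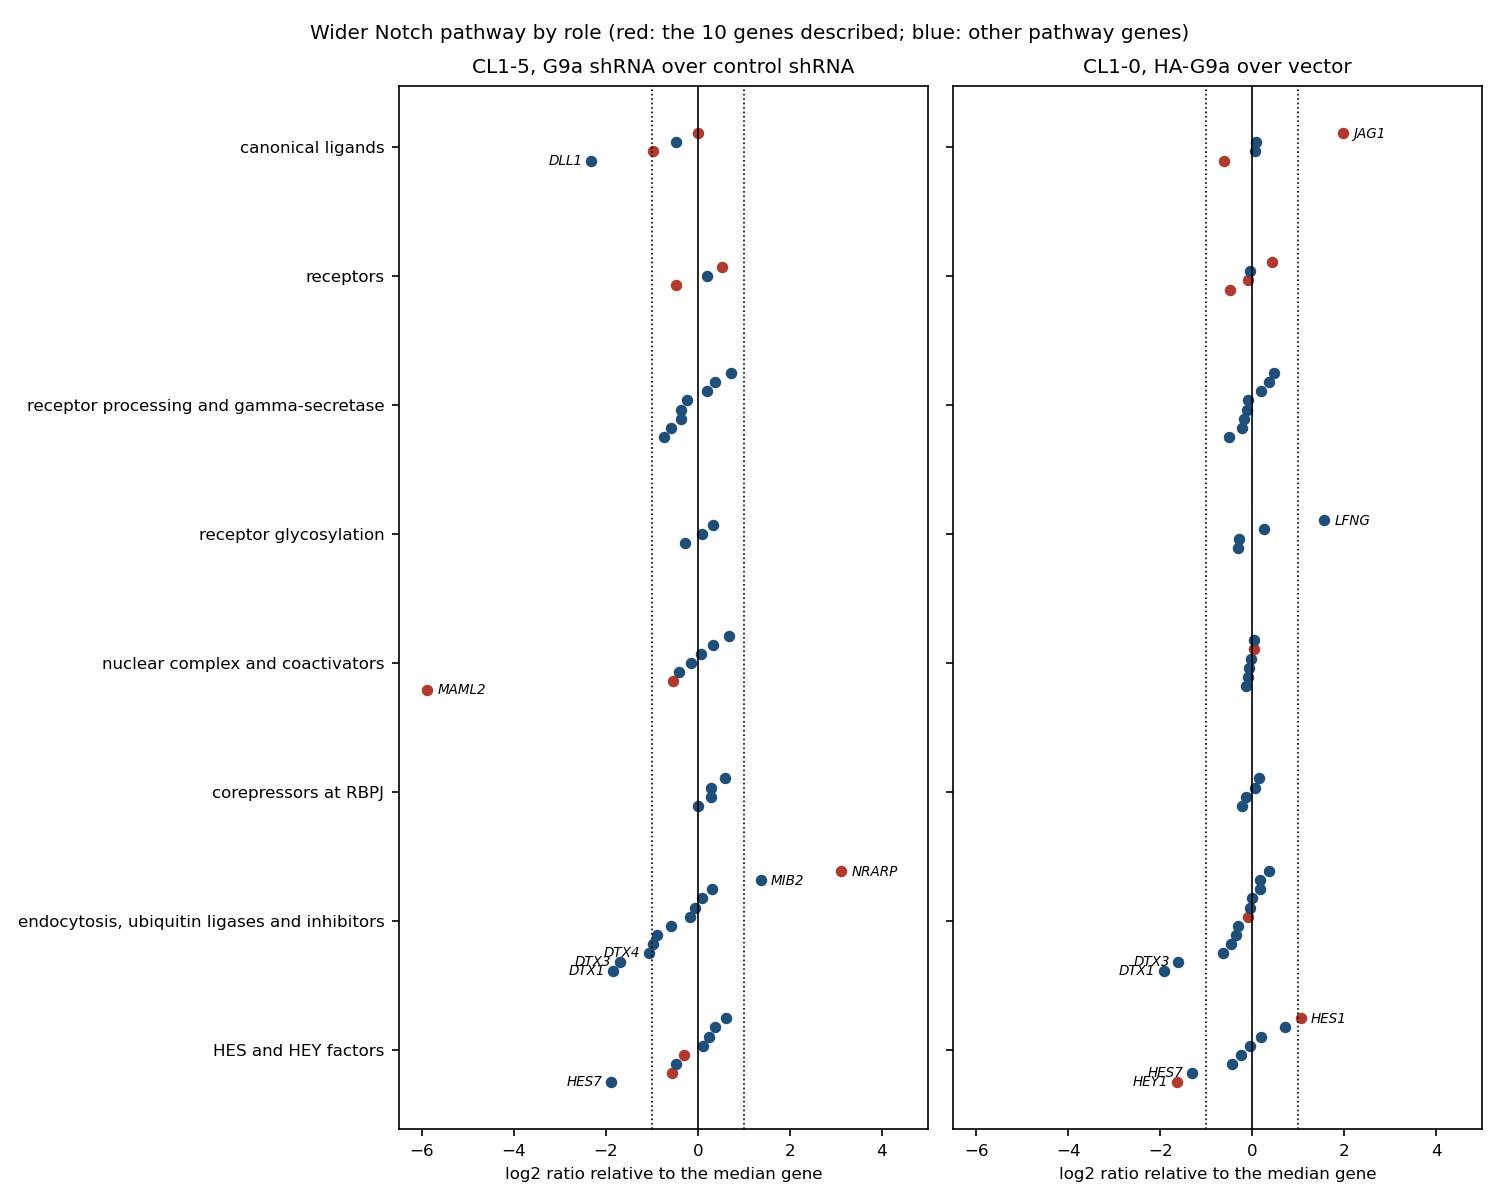
Log2 ratio relative to the median gene for counted genes of the wider pathway, by role, with G9a shRNA over control shRNA on the left and HA-G9a over vector on the right. Red points are the 10 genes described above and blue points the others; genes past 2-fold, marked by dotted lines, are named. The processing enzymes and corepressors all lie inside 2-fold on both sides.

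The machinery that cuts the receptors lay within 2-fold of the median gene. Of 8 genes of receptor processing and gamma-secretase, none passed 2-fold in either comparison. ADAM10, which makes the first ligand-induced cut, read 1099.6 with the G9a shRNA and 635 with the control shRNA, a relative log2 ratio of 0.37. NCSTN, a gamma-secretase subunit, had -0.74 and FURIN, the convertase that processes the receptor during its maturation, 0.71. Of the glycosyltransferases, LFNG, a Fringe enzyme that alters which ligands a receptor answers to, read 15.6 with HA-G9a and 5.58 with the vector, a relative log2 ratio of 1.56 at a dim level. It was 1 of 4 glycosyltransferases counted there, and only through the HA-G9a array. The 4 corepressor genes with values had relative log2 ratios between 0 and 0.58 with the G9a shRNA and between -0.22 and 0.15 with HA-G9a.

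The Delta ligand gene DLL1 read 6.5 with the G9a shRNA and 24.2 with the control shRNA, a relative log2 ratio of -2.32. DLL1 was counted there only through the control array, on 1 of its 2 probe sets. With HA-G9a and the vector it read 21.7 and 21.6. Among the ubiquitin ligases, MIB2, which acts on ligands in the sending cell, read 143 with the G9a shRNA and 41.5 with the control shRNA, a ratio of 1.36. The Deltex genes, whose products act on the receptor, were singled out after their values were seen. With the G9a shRNA 3 of 4 were at least 2-fold lower, beside 7.76% of all genes: DTX1 had a ratio of -1.84, DTX3 of -1.70 and DTX4 of -1.07, whereas DTX2 had -0.06. DTX1 and DTX3 were counted only through the control array, where they read 22.7 and 15.9. DTX4 read 22.9 with the G9a shRNA and 35.8 with the control shRNA. DTX1 and DTX3 were also lower with HA-G9a, at -1.92 and -1.61, with DTX1 reading 4.97 against 19.9 with the vector. Both were counted there only through the vector array. For DTX3, 1 of its 2 counted probe sets had the other sign there.

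Of the other HES and HEY factors, HES7, a dim gene, was at least 2-fold lower in both comparisons. It read 9.88 with the G9a shRNA and 27.3 with the control shRNA, and 15.6 with HA-G9a and 41.2 with the vector. Its relative log2 ratios were -1.88 and -1.32. In CL1-5 it was counted only through the control array. HEY2 read 71.5 with the G9a shRNA and 35.2 with the control shRNA, a ratio of 0.60, and 39.2 with HA-G9a and 25.3 with the vector, a ratio of 0.71. HES4 and HEYL lay within 2-fold in both comparisons. HES6 read 54.5 and 37.8 in CL1-5, against 84.3 and 121 in CL1-0, and was among the 5 further genes at least 2-fold lower in CL1-5, with DLL1, LFNG, DTX3 and DTX4. For DLL1 this came from the knockdown array alone: the control arrays read 24.2 in CL1-5 and 21.6 in CL1-0. LFNG passed the filter here only through the HA-G9a array, where it is high. Its CL1-5 values, 2.31 and 1.30, lie under the floor, so its direction is no independent support.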

How the data were processed

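The deposited table gives, for each probe set, a linear signal intensity on each of the 4 arrays. Per the submitters' processing notes it was made with MAS5; the sources used here give no version, settings or detection calls. The number of arrays limits the precision.

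Probe sets were named through the array's annotation table, with symbols updated by Entrez identifier against RefSeq (GRCh38.p14). Of 54675 probe sets, 41097 had 1 gene symbol, 1801 several and 11777 were not listed, and 41043 symbols were matched. Probe sets of Y-linked genes and of X-inactivation transcripts, 59 in all, were left out. A gene was represented by its brightest single-gene probe set on average over the arrays in counts of genes and in limma. The intensities, as deposited, were floored at 3.35 and log2-transformed, and 2-fold was a fixed threshold with no test.

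limma 3.58.1 (R 4.3.3; lmFit, eBayes, Benjamini-Hochberg at 0.05) compared the lines with 2 residual degrees of freedom over 13953 genes whose brightest array reached 12.5, and was tested on simulated data. Other steps used Python 3.11.15, pandas 2.3.3 and NumPy 2.4.6. Motifs were searched in the 250 bases before each start.

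All 10 genes and EHMT2 were always named. Further pathway genes were named when past 2-fold, and others as examples of their group, chosen after their values were seen. The members and lists were chosen with earlier results of these data known. Of the listed genes, 6 were not analysed here. Alternatives covered scaling, centring, floor, filter, the probe set rule and leaving out each array.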

Additional observations from a re-analysis of the deposited data

How the results depend on the processing

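The knockdown count was 2 genes past 2-fold under 7 of 8 alternatives; the mean of all probe sets gave 3, with 2 lower in place of 1. The HA-G9a count of 2 higher genes became 1 with the arrays scaled to one median, as deposited, and with no filter on dim genes, and 0 with the mean of all probe sets, which left 1 gene past 2-fold in all. The line comparison called 2 of the 10 genes. It called 1 after quantile normalization (limma adjusted p of 0.0597 for JAG1) and 1 with no floor (0.0506), 0 with no filter on dim genes (0.0943 for NOTCH3 and 0.168 for JAG1), and 0 on leaving out any 1 array. Of all genes it called 406, against 222 with no floor, 17 with no filter and 0 on leaving out any 1 array, where 1 residual degree of freedom is left and the lone array is assumed to vary like the other line. Between the control arrays alone NRARP was lower in CL1-5 by a log2 difference of -1.66, against 0.20 over all 4 arrays. No direction of a called gene reversed. The labels give no replicate numbers to pair by; the model with line and G9a level compares within lines, and it called 0 of the 10 genes under each alternative run for it (scaling, floor, filter and probe set rule). MAS5 signals near background are noisy, which limits MAML2, NOTCH3 in CL1-5, DTX1, DTX3, and DLL1 and HES7 with the G9a shRNA.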

Other observations

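One probe set is annotated to NOTCH2 and to several of its NOTCH2NL copies and was used in no comparison. It read 222 with the G9a shRNA and 188 with the control shRNA, and 166 with HA-G9a and 184 with the vector, with relative log2 ratios of -0.18 and -0.06. DLK1, a non-canonical ligand and imprinted gene, was too dim to be counted, at 10.5 with the G9a shRNA and 1.31 with the control shRNA, and at 10.3 with HA-G9a and 2.42 with the vector.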
